A study of Mus musculus with 21 samples.

Results

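The 39 Hox genes of the mouse, the whole family as it stands in the deposited expression tables, were followed through endothelial cells of brain, lung and liver. They were taken as every row whose symbol is Hox, a cluster letter from a to d and a paralog number, which gave 39 of 24176 rows of the bulk RNA table and the same 39 symbols among 32285 rows of the single-cell table. Cluster A held 11 of them, cluster B 10, cluster C 9 and cluster D 9. The rule used no measured value, though it was chosen with earlier results of these data known. The cells came from C57BL/6J mice aged 2 to 4 months, with no other genotype or treatment named in the labels, and each tissue had 3 bulk RNA libraries. Mice were perfused, the organs were dissociated in collagenase IV, dispase and DNase, and a myelin removal step was applied to brain alone. All groups shared the sort for CD31, an endothelial surface protein, and against PDGFRβ (pericytes), CD45 (blood lineage cells) and 7-AAD (dead cells). A single further library held brain endothelial cells as single-cell transcriptomes. Each organ was digested whole, so the vessels of its regions were mixed.

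Hox genes encode homeodomain transcription factors that mark position along the body axis in the embryo. Within a cluster they lie in a row, and their place in the row follows the order in which they come on along the axis, low paralog numbers toward the head and high ones toward the tail. The forebrain and midbrain form ahead of the Hox domains. Hox proteins bind DNA together with homeodomain partners of the Pbx, Meis and Pknox families, retinoic acid switches on the low-numbered genes, and Polycomb and trithorax proteins hold their silent and active states.

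Upstream sequence from RefSeq (GRCm38.p6) was at hand for 22 of the 39 genes, in 24 windows. The 6 stretches printed here are the 120 bases before the annotated start of genes that the results turn on. Hoxa2, Hoxa5 and Hoxb4 had counts in lung and liver, Hoxb8 mainly in liver, Hoxd8 in liver and in single brain cells, and Hoxc4 stands for a cluster with hardly any counts. Each is written 5′ to 3′ in the direction of its gene, with capitals for matches, on either strand, to TATAAA (the TATA motif), CCAAT (the binding motif of NF-Y), GGGCGG (the motif of Sp1), TGATTNAT (a site of Hox-Pbx pairs), TGACAG (the Meis core) and AGGTCA (a half-site of nuclear receptors such as those of retinoic acid).
Hoxa2 (chr6:52164832-52164951, minus strand): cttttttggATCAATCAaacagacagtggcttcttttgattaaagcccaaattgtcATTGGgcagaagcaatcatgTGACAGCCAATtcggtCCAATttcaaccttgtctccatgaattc
Hoxa5 (chr6:52204588-52204707, minus strand): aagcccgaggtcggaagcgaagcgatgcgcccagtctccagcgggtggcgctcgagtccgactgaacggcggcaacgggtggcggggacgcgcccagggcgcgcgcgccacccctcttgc
Hoxb4 (chr11:96318147-96318266, plus strand): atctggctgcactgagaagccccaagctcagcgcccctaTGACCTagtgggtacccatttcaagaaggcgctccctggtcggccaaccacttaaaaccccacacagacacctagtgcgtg
Hoxb8 (chr11:96281785-96281904, plus strand): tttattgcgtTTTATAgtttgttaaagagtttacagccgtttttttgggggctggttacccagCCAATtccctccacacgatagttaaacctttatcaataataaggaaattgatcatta
Hoxc4 (chr15:103034275-103034394, plus strand): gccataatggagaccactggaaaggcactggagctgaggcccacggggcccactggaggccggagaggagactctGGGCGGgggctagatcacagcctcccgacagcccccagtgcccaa
Hoxd8 (chr2:74704495-74704614, plus strand): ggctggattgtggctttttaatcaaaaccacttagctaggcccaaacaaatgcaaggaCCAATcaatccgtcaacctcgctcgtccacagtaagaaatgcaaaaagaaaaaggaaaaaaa

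The bulk libraries held between 2992101 and 25690571 counts of reads assigned to genes, lung being the shallowest tissue. A single count was worth 0.0459 to 0.0629 CPM (its count scaled to a fixed library total) in the brain libraries, 0.0884 to 0.334 in lung and 0.0389 to 0.0541 in liver. The labels speak of biological replicates and say nothing of animals, so the spread behind each p-value is that of the 3 libraries of a tissue and may be technical. Slc2a1, the glucose transporter of brain vessels, was at 2761 to 3780 CPM in brain and at most 39.0 elsewhere. Ace, high in lung capillaries, had 2300.2 to 3127 CPM in lung and at most 46.5 elsewhere, and Stab2, a scavenger receptor of liver sinusoids, had 1464 to 1868 CPM in liver and at most 0.442 elsewhere. The endothelial genes Pecam1 and Cdh5 were above 600 CPM in every library, and of 10 endothelial markers none was at 0 in any tissue.

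Brain endothelial cells had almost no Hox RNA, while lung and liver endothelial cells had it from the low-numbered genes of clusters A and B. The 3 brain libraries held 2, 9 and 5 Hox counts, the lung libraries 2369, 587 and 797, and those of liver 3558, 4908 and 4766. As a share of the library the sum over all 39 genes was 0.126, 0.502 and 0.229 CPM in brain, 209, 196 and 115 CPM in lung and 192, 191 and 204 CPM in liver. Every lung and liver library was thus above every brain library, and the ranges of lung and liver overlapped. In bulk RNA, fewer expressing cells and less RNA per cell cannot be told apart.

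**Figure D1:**
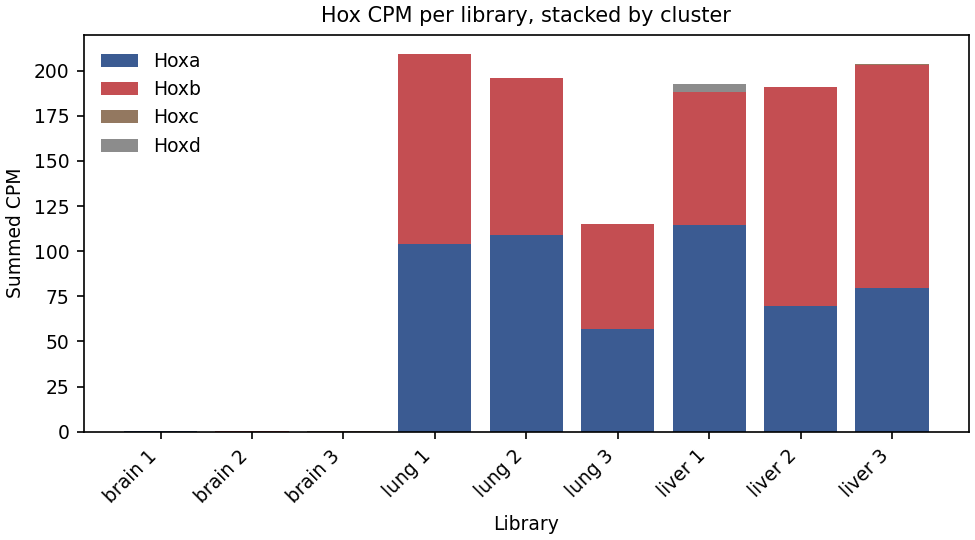
Summed CPM of the Hox genes in each of the 9 bulk libraries, stacked by cluster. Brain bars are too low to see (at most 0.502 CPM), while lung and liver bars reach 115 to 209 CPM and are made of clusters A and B.

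Of the 39 genes, 22 had at least 1 count in the 9 libraries and 17 had none. With detection set at 3 counts over the libraries of a tissue, 2 genes were detected in brain, 12 in lung and 17 in liver. The lung set lay in the rows of cluster A up to Hoxa7 and of cluster B from Hoxb2 to Hoxb6. Liver added Hoxb7, Hoxb8, Hoxb9, Hoxc6 and Hoxd8. The brain pair was Hoxb5, with 4 counts in replicate 2 and 0 in the others, and Hoxc6, with 4 counts in replicate 3 and 0 in the others. Lung was also the shallowest tissue, and what its fewer genes owe to depth was not tested.

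The split along the clusters was steep. Paralogs 1 to 5, which make up 15 of the 39 rows, held 97.8% to 99.4% of the Hox counts in the lung libraries and 95.8% to 98.2% in those of liver. Paralogs 6 to 8 held 0.627% to 1.98% in lung and 1.63% to 4.24% in liver. The 16 rows of paralogs 9 to 13 held 4 counts in all of lung and 10 in all of liver, and 12 of these rows were at 0 in every library. In cluster A the counts ended between Hoxa7, with 13 counts in lung and 11 in liver, and Hoxa9, with 0 in both. Hoxa9, Hoxa10, Hoxa11 and Hoxa13 were at 0 in all 9 libraries, for which the floor of 3 counts allows up to 0.0539 CPM in brain, 0.141 in lung and 0.0444 in liver. These limits, like every interval here, cover counting error only.

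**Figure D2:**
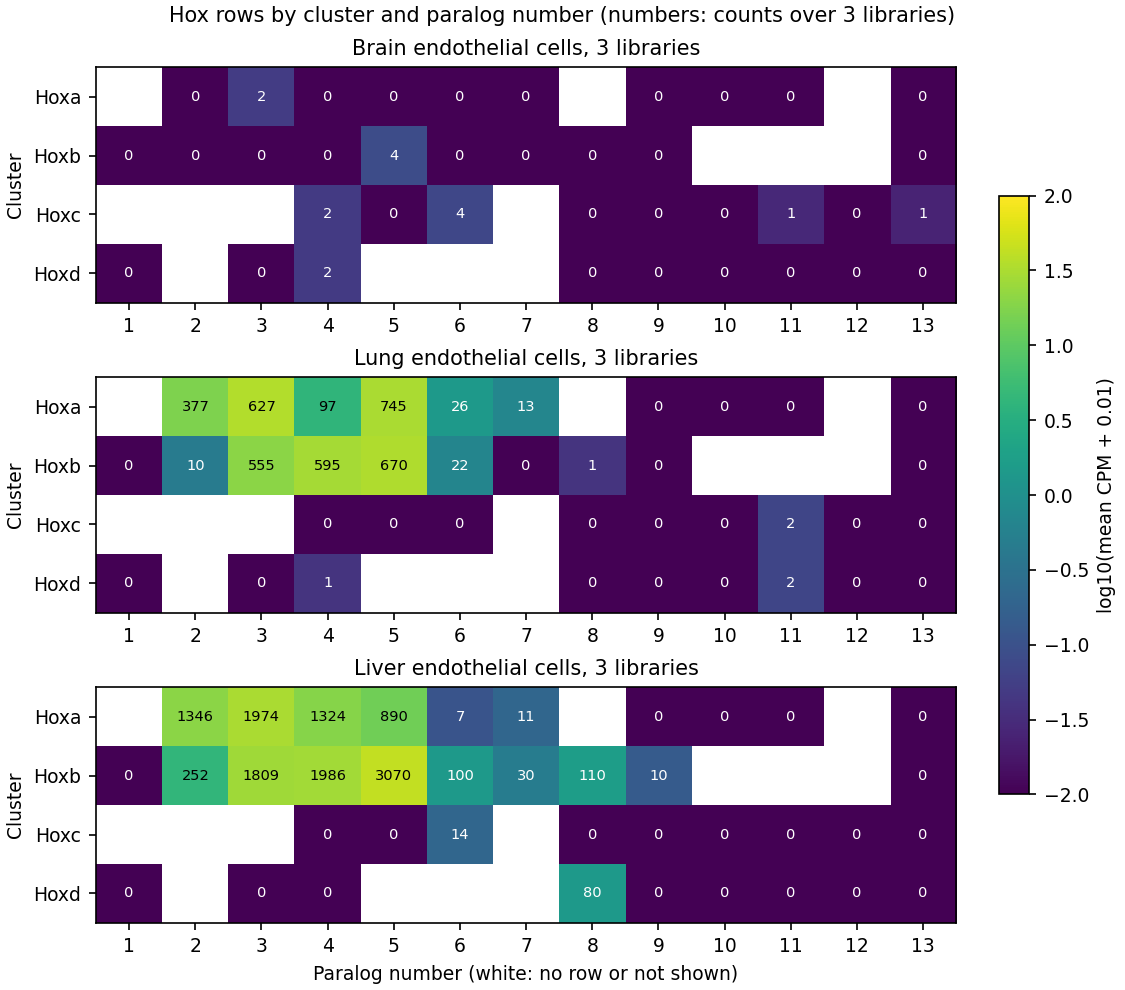
Mean CPM of 38 Hox genes on a log10 scale after adding 0.01, by cluster (rows) and paralog number (columns) for brain, lung and liver, 3 libraries each. Printed numbers are counts over the 3 libraries. Lung and liver are bright at Hoxa2 to Hoxa5 and at Hoxb3 to Hoxb5, brain is dark throughout, and clusters C and D hold few counts anywhere. Hoxb2 is dimmer, with a mean of 0.444 CPM in lung and 4.26 CPM in liver.

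Clusters A and B shared the lung counts about evenly. Cluster A took 49.6%, 55.5% and 49.6% of the Hox counts of the lung libraries. In liver it took 59.6%, 36.6% and 38.9%, so replicate 1 stood apart from the other two. Cluster C had 8 counts in brain, 2 in lung and 14 in liver, and cluster D had 2, 3 and 80. Of the 9 genes in each, 5 of cluster C and 6 of cluster D were at 0 in every library.

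In cluster A, Hoxa2 sets the identity of the second pharyngeal arch. It had 22.8, 19.7 and 8.66 CPM in lung, 22.0, 13.6 and 25.2 CPM in liver, and 0 in all brain libraries, and lung and liver overlapped. Pooled over libraries and set against a floor of 3 counts, Hoxa2 was at least 329-fold higher in lung and at least 370-fold higher in liver than in brain.

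Hoxa3 is required for thymus and parathyroid development. Its lung values were 31.3, 59.2 and 13.9 CPM and its liver values 54.96, 20.7 and 18.2 CPM, while brain replicate 1 had 0.126 CPM, from 2 counts, and the others 0. The pooled level in lung was 822 times that in brain, with a 95% counting interval of 227 to 6800 times. In RefSeq the span of Hoxa3 runs over Hoxa4, Hoxa5 and Hoxa6, and the sources used here do not give how reads shared by overlapping genes were counted, which leaves the split between these 4 genes uncertain. Hoxa4 had 4.86, 2.67 and 4.91 CPM in lung, 14.1, 24.6 and 18.4 CPM in liver and 0 in brain, with every liver library above every lung library. Its pooled level was at least 84.8-fold higher in lung and at least 364-fold higher in liver than in brain.

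Hoxa5, needed for lung and airway development, was the 1 tested member with all lung libraries above all liver libraries. It had 41.8, 24.1 and 28.9 CPM in lung, 18.2, 9.69 and 13.1 CPM in liver and 0 in brain, at least 651-fold and at least 244-fold higher than in brain. Hoxa6 and Hoxa7 had few counts. Hoxa6 had 1.41, 2.34 and 0.433 CPM in lung, 0, 0 and 0.300 CPM in liver and 0 in brain. Hoxa7 had 0.707, 1.00 and 0.289 CPM in lung, 0.595, 0 and 0 CPM in liver and 0 in brain, so that in liver all 11 counts came from replicate 1.

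In cluster B, Hoxb1 was at 0 in all libraries. Hoxb2, which acts in hindbrain motor neuron identity, had 0.177, 0 and 1.16 CPM in lung, 9.85, 0.545 and 2.40 CPM in liver and 0 in brain. Liver replicate 1 was far above the other two, and lung and liver overlapped. Hoxb3 had 39.0, 8.02 and 12.996 CPM in lung, 19.4, 19.7 and 40.4 CPM in liver and 0 in brain, at least 485-fold and at least 497-fold higher than in brain. Hoxb4, known for expanding blood stem cells when overexpressed, had 32.1, 38.1 and 17.0 CPM in lung, 12.01, 24.7 and 48.4 CPM in liver and 0 in brain, at least 520-fold and at least 545-fold higher. For both genes lung and liver overlapped. The RefSeq spans of Hoxb3 and Hoxb4 overlap too, so their split is uncertain.

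Hoxb5 had 3070 counts over the 3 liver libraries. It had 31.9, 41.1 and 26.9 CPM in lung and 28.9, 72.7 and 28.5 CPM in liver, where replicate 2 stood above the rest. In brain it had 0, 0.223 and 0 CPM, and the pooled ratio of lung to brain was 439 (95% counting interval 171 to 1616). Hoxb6 had 1.95, 0 and 0 CPM in lung, 0.649, 2.10 and 1.45 CPM in liver and 0 in brain, and lung replicate 1 alone carried its 22 lung counts. Hoxb8, which marks a wave of early blood and microglial progenitors, had 0.0884, 0 and 0 CPM in lung, 2.38, 1.01 and 1.71 CPM in liver and 0 in brain. The liver libraries were all above lung, where Hoxb8 rested on 1 count.

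The remaining genes had counts in 1 library of a tissue or in liver alone. Hoxb7 had 10, 0 and 20 counts in liver and Hoxb9 had 10 counts in liver replicate 2, both with none in brain or lung. Hoxd8 had 74, 0 and 6 counts in liver, or 4.00, 0 and 0.257 CPM, and none in brain or lung, so its liver level rested on replicate 1. Hoxc6 had 14 counts in liver replicate 3. Hoxc4 had 2 counts in brain, Hoxc11 had 1 in brain and 2 in lung, Hoxc13 had 1 in brain, Hoxd4 had 2 in brain and 1 in lung, and Hoxd11 had 2 in lung. Each of these traces of 1 or 2 counts came from a single library of its tissue.

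**Figure D3:**
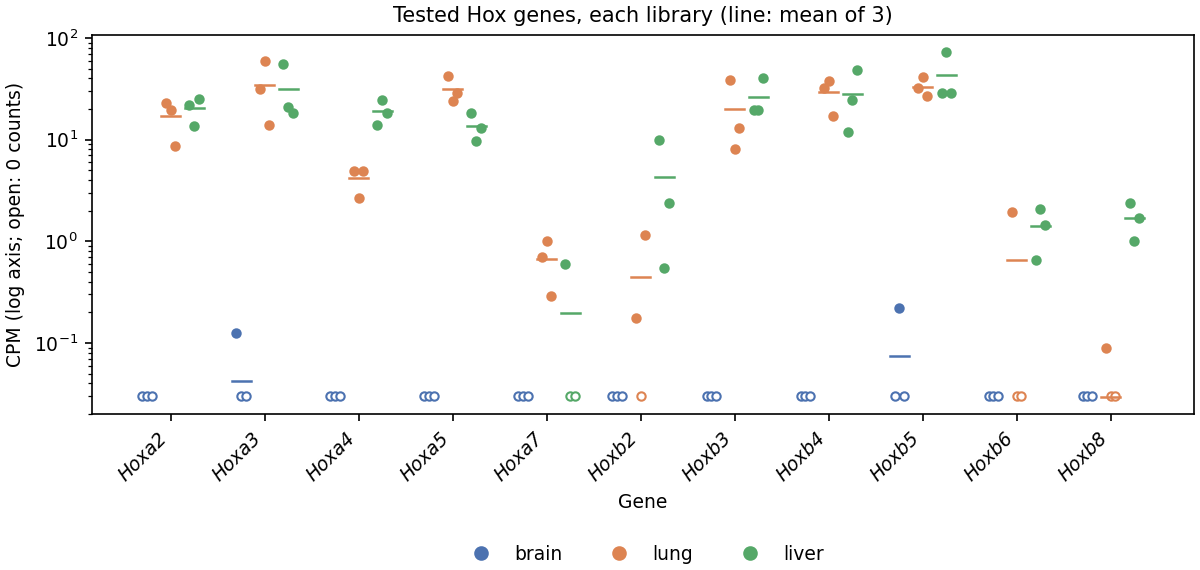
CPM of 11 of the 12 tested Hox genes in each library, on a log axis, with open circles for 0 counts (drawn at the foot) and lines for the mean of 3 libraries. Brain shows open circles apart from 1 library each for Hoxa3 and Hoxb5, and lung and liver lie at 2.67 CPM or above for Hoxa2, Hoxa3, Hoxa4, Hoxa5, Hoxb3, Hoxb4 and Hoxb5.

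Between tissues, edgeR's quasi-likelihood test with Benjamini-Hochberg adjustment was run over 13216 genes that passed a count filter, and calls needed an adjusted p under 0.05 and a log2 fold change of 1 or more in either direction. Of the 39 Hox genes 12 passed the filter and 27 did not. These 12 passed through their lung or liver counts, so a low brain level was built into the set, and their counts are a description.

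From brain to lung, 7 of the 12 were called lower in brain and none higher: Hoxa2, Hoxa3, Hoxa4, Hoxa5, Hoxb3, Hoxb4 and Hoxb5. Of all genes tested, 7.25% were called lower in brain and 5.05% higher. The adjusted p-values by edgeR ran from 3.54e-05 for Hoxa5 to 0.000972 for Hoxa4. The median log2 difference of the 12 was -8.78, which describes a set that passed the filter through its lung or liver counts. Most of the 12 were at 0 in brain, where the size of a fitted difference depends on settings of the fit. Hoxa3, a gene with a brain count, had a log2 difference of -9.55 ± 1.18 (SE), and Hoxb5 one of -8.64 ± 1.096. Among those not called were Hoxa7 (adjusted p by edgeR 0.138), Hoxb2 (0.109), Hoxb6 (0.114) and Hoxb8 (0.421). Brain libraries lay below all lung libraries for 8 of the 12, against 18.9% of all genes.

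From brain to liver, 10 of the 12 were called lower in brain and none higher, the 7 genes above and, among others, Hoxb2 and Hoxb8. Of all genes, 8.72% were called lower in brain than in liver and 7.45% higher. The brain libraries are the same in both comparisons. Hoxb5 had an adjusted p of 5.32e-05 by edgeR and a log2 difference of -9.35 ± 1.12, and Hoxa3 one of -9.59 ± 1.18 (adjusted p by edgeR 6.62e-05). Hoxb2 and Hoxb8 had weaker support, with adjusted p-values by edgeR of 0.0228 for Hoxb2 and 0.0274 for Hoxb8. They were at least 69.2-fold and at least 30.2-fold higher in liver, and each lost its call when any 1 brain library or liver replicate 1 was left out, which took the count of called genes from 10 to 7. Hoxb8 lost it also without liver replicate 2 or 3 or lung replicate 1 or 3. Hoxb6 (adjusted p by edgeR 0.0602) and Hoxa7 (0.218) were not called. Brain lay below all liver libraries for 11 of the 12, against 14.8% of all genes.

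Between lung and liver, 0 of the 12 were called by edgeR, against 15.1% of all genes (8.04% higher and 7.02% lower in lung), and 2 were lower in lung at an unadjusted p under 0.05. These were Hoxa4, with a log2 difference of lung to liver of -2.48 ± 0.87 (adjusted p by edgeR 0.0796), and Hoxb8, with -5.33 ± 2.05 (0.108). DESeq2 called 1, Hoxa4, lower in lung, as did edgeR fitted to lung and liver alone. Hoxa5 had a log2 difference of 1.00 ± 0.64 toward lung (adjusted p by edgeR 0.353). For the genes with the most counts the differences were -0.04 ± 0.75 for Hoxa3, -0.18 ± 0.68 for Hoxb4 and -0.71 ± 0.74 for Hoxb5, so differences of a few fold would not have been resolved. In data simulated on these libraries, 17 of 56 genes changed 4-fold between lung and liver were called among 12883 genes (log2 change of 2), and 0 of 48 changed 2-fold (log2 change of 1). There were 9 false calls. The changed genes were drawn at random from tested genes of any level and spread, so these shares are not those of the Hox genes named here. The libraries of lung and liver did not overlap for 4 of the 12, among them Hoxa5 higher in lung and Hoxa4 and Hoxb8 lower, against 21.0% of all genes higher and 13.5% lower.

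Among the partners of Hox proteins, Meis1 and Meis2 were nearly absent from brain, and Pbx2 and Pbx3 were called in no comparison. Meis1 had 0.629, 0.167 and 0 CPM in brain, 221, 121 and 226 CPM in lung and 99.2, 17.9 and 67.7 CPM in liver. It was lower in brain by a log2 difference of -9.49 ± 0.97 against lung (adjusted p by edgeR 2.14e-05) and -8.03 ± 0.92 against liver (3.58e-05). Meis2 had 0.692, 0.725 and 0.0918 CPM in brain, 124, 77.9 and 79.3 CPM in lung and 321, 445 and 421 CPM in liver. Its log2 differences were -7.53 ± 0.59 for brain against lung (adjusted p by edgeR 2.23e-06) and -9.87 ± 0.64 for brain against liver (1.98e-07). Meis2 was also called lower in lung than in liver, by -2.34 ± 0.45 (0.00289), while Meis1 was above liver in every lung library without a call (1.46 ± 0.66, adjusted p by edgeR 0.16).

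Of 9 cofactor genes 7 were tested, and these 2 were the ones called in brain against either tissue, beside 12.3% of all genes called in either direction against lung and 16.2% against liver. Pbx2 ranged over 25.8 to 45.3 CPM in brain, 16.7 to 26.4 in lung and 16.7 to 33.6 in liver, and Pbx3 over 13.2 to 39.3, 27.4 to 28.2 and 25.7 to 44.0, and neither was called in any comparison, nor was Pknox1. Pknox2 was called higher in lung than in liver (5.11 ± 1.38, adjusted p by edgeR 0.023), with 118, 7.69 and 15.02 CPM in lung, 0.649, 0 and 3.08 CPM in liver and 11.8, 9.14 and 8.72 CPM in brain. Meis3 stayed below 1 CPM in every library, and Pbx4 was at 0.

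**Figure D4:**
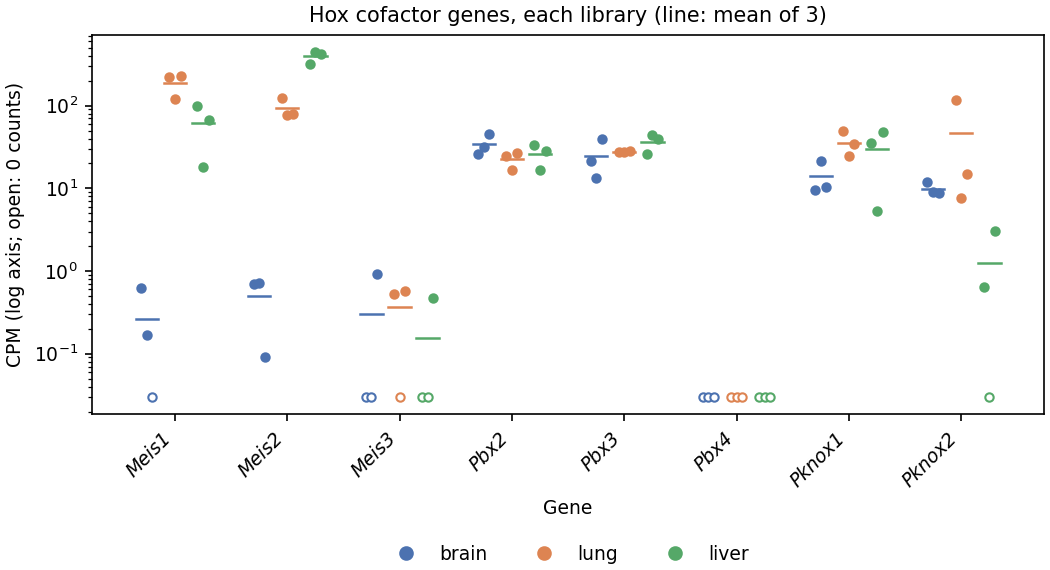
CPM of 8 of the 9 Hox cofactor genes in each library, on a log axis, with open circles for 0 counts and lines for the mean of 3 libraries. Meis1 and Meis2 are below 1 CPM in brain and at 17.9 CPM or above in lung and liver, while the 3 tissues intermingle for Pbx2 and Pbx3.

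In the retinoic acid pathway, 15 of 18 listed genes were tested. In brain against lung 2 were called higher and 4 lower, beside 5.05% and 7.25% of all genes. In brain against liver 1 was called higher and 6 lower, beside 7.45% and 8.72% of all genes. Stra6, the membrane receptor that takes up retinol from its carrier, had 108, 183 and 96.6 CPM in brain, 0.0884, 0 and 0 CPM in lung and 0 in liver, and was called higher in brain against lung (adjusted p by edgeR 6.63e-06) and against liver (1.41e-06). Aldh1a3, an enzyme that makes retinoic acid, had 2.45, 3.68 and 6.42 CPM in brain and 0 in lung, where it was called (0.0493), and 0.541, 0 and 0.770 CPM in liver, where it was not (0.269). Cyp26b1, which breaks retinoic acid down, had 18.8, 16.7 and 2.29 CPM in brain, 95.4, 224 and 187 CPM in lung and 812, 974 and 1802 CPM in liver. Its steps were called in all 3 comparisons, with log2 differences of -3.73 ± 0.67 for brain against lung, -6.77 ± 0.77 for brain against liver and -3.04 ± 0.65 for lung against liver. The receptor gene Rxrg had 4.92, 15.6 and 2.91 CPM in liver and 0 elsewhere.

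Among genes of the chromatin systems that act on Hox clusters, calls are to be read beside the 12.3%, 16.2% and 15.1% of all genes called in brain against lung, brain against liver and lung against liver. Of 11 tested genes of Polycomb repressive complex 2, which writes the silencing mark on histone H3 lysine 27, edgeR called 0 in any comparison. At an unadjusted p under 0.05 there were 2 in brain against lung, 0 in brain against liver and 1 in lung against liver, and DESeq2 also called 0. Their summed level was 415 to 453 CPM in brain, 253 to 391 in lung and 259 to 388 in liver. Of 19 genes of Polycomb repressive complex 1, Phc1 was called higher in brain than in liver (1.51 ± 0.43, adjusted p by edgeR 0.0285) and Cbx7 higher in lung than in liver (2.31 ± 0.56, 0.013). Of 11 trithorax and demethylase genes, 2 were called in brain against lung, 0 in brain against liver and 2 in lung against liver. Kdm6b, which removes the Polycomb mark, was called lower in brain than in lung (-3.27 ± 0.36, adjusted p by edgeR 3.67e-05) and higher in lung than in liver (3.44 ± 0.36, 2.36e-05), with 380 to 758 CPM in lung, 45.4 to 87.3 in brain and 39.6 to 54.7 in liver. Psip1 was called higher in brain against lung (1.42 ± 0.38, 0.0239) and Dot1l higher in lung than in liver (1.80 ± 0.50, 0.0275).

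Of 17 tested genes that lie beside the clusters, 2 were called higher and 1 lower in brain against lung, 0 higher and 3 lower in brain against liver, and 1 higher and 0 lower in lung against liver. That is 17.6%, 17.6% and 5.88% of them, beside 12.3%, 16.2% and 15.1% of all genes. Lnp (1.76 ± 0.51, adjusted p by edgeR 0.0363) and Cbx5 (1.00 ± 0.23, 0.01) were the higher ones in brain. Skap2, an adaptor protein gene next to cluster A, was called in both, with 8.99, 2.68 and 5.46 CPM in brain, 70.3, 32.1 and 37.8 CPM in lung and 39.4, 61.8 and 42.4 CPM in liver. Evx1 and Evx2, the homeobox genes at the high-numbered ends of clusters A and D, were at 0 throughout. Of 13 listed noncoding RNAs of the clusters that have a row, 12 were at 0 in all libraries and Hoxaas3 had 1 count. All 6 genes of the Cdx and ParaHox list, relatives of the Hox genes outside the clusters, were at 0.

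Markers of other cells also differed between tissues. The 8 fibroblast markers summed to 3.46, 24.8 and 19.7 CPM in the brain libraries, 66.2, 42.1 and 56.2 CPM in those of lung and 10.55, 8.84 and 7.45 CPM in those of liver, with Dcn and Lum at 0 in brain and Lum and Dpt at 0 in liver. The 10 leukocyte markers summed to 149 to 213 CPM in lung, 3.85 to 17.6 in brain and 9.63 to 24.0 in liver. The 8 lung epithelium markers summed to 310, 1798 and 625 CPM in the lung libraries, at most 2.89 in brain and at most 14.3 in liver. The 6 mesothelium markers summed to 2.39, 36.1 and 0 CPM in lung, 1.30, 4.59 and 13.6 in liver and at most 0.126 in brain. The 7 hepatic stellate cell markers summed to 115 to 169 CPM in liver, 115 to 128 in lung and 62.9 to 91.0 in brain. The 8 mural markers summed to 70.4 to 97.0 CPM in liver, 142 to 652 in lung and 83.7 to 191 in brain. Single members departed from these sums. Lrat was at 0 in brain, and edgeR called Hgf, Lrat and Reln lower there against both other tissues. Rgs4 was called the other way against liver, and Ecm1 was near level (-0.04 ± 0.39 for brain against liver). Of the mural markers, Acta2, Pdgfrb and Rgs5 were called toward brain against liver, where Pdgfrb was at 0. Against lung, Rgs5 was called toward brain and Des toward lung. The 8 hepatocyte markers summed to 280.1 to 704 CPM in liver, 1.34 to 9.46 in lung and 49.5 to 966 in brain. Of these 8, 5 were called lower in brain than in liver and 0 higher, and Alb, Apoa1, Hnf4a and Apoc3 were at 0 in brain. Ttr, also on the list of choroid plexus epithelium, had a log2 difference of 3.10 ± 0.91 toward brain against liver without a call (adjusted p by edgeR 0.0548). The 6 lymphatic endothelial markers, of cells that the CD31 sort does not remove, summed to 324 to 435 CPM in brain, 1072 to 1526 in lung and 2480 to 2981 in liver, so they too were lower in every brain library. Most of that sum was Flt4 and Lyve1, and liver sinusoids also carry both. Prox1, the defining lymphatic factor, was at 0.880, 0.948 and 6.24 CPM in the brain libraries, 12.03, 6.02 and 3.75 CPM in those of lung and 11.3, 1.25 and 16.7 CPM in those of liver, and Ccl21a was at 0 throughout. The part of these cells in the Hox counts was not tested beyond these values.

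For the upstream sequences, CpG dinucleotides in the 250 bases before the start had a median of 12.5 over the 24 Hox windows and 6 over 32851 RefSeq windows. The 5 genes with at least 100 counts in lung and liver together and a window had 6 (Hoxa2), 18 (Hoxa3), 28 (Hoxa5), 14 (Hoxb4) and 12 (Hoxb8). The most CpG-rich windows, with 35 and 31, were those of Hoxa13 and Hoxd13, which had no count in any library. CCAAT was found in 14 of 24 Hox windows and in 33.8% of all windows, GGGCGG in 10 and 32.7%, AGGTCA in 6 and 14%, and TATAAA in 4 and 12.4%. TGATTNAT was found in 2 Hox windows, Hoxa2 and 1 of Hoxd11, and in 2.82% of all, and TGACAG in 2, Hoxa2 and Hoxa3, and in 15.9% of all. In the Hoxa2 stretch printed above, all 3 kinds of capital run, CCAAT, TGATTNAT and TGACAG, occur within the 120 bases. These are matches of letters, and no share was tested.

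In the single-cell library of brain endothelial cells, Hox RNA was again scarce, and most of it came from cluster D. The library held 9405 barcodes with a median of 4393 UMIs (unique molecular identifiers, 1 per captured RNA molecule). Of the 39 Hox genes 9 had a UMI, and the family had 31 UMIs in 24 barcodes, 0.255% of all (95% exact Clopper-Pearson interval 0.164% to 0.380%). A single library gives no test. Cluster D had UMIs in 16 barcodes, cluster B in 7, cluster A in 1 and cluster C in none, which allows a share of up to 0.0319%. Limits on a share of 0 in the text are 3 divided by the number of barcodes. They lie below the upper end of the exact interval, which is 0.0392% for cluster C. Hoxd8 led with 14 UMIs in 11 barcodes, followed by Hoxd4 with 5 in 4, Hoxb3 with 4 in 3, Hoxa2 with 2 in 1 and Hoxb9 with 2 in 2. Hoxb1, Hoxb4, Hoxd3 and Hoxd9 had 1 UMI each. Hoxa5 and Hoxb5, high in lung and liver, had none. A pair of Hox genes met in 1 barcode.

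All 24 barcodes had UMIs of Pecam1 and Cdh5, and their median depth was 6602 UMIs against 4384 in barcodes without a Hox UMI. For free RNA, 266 barcodes rich in hemoglobin (at least 10% of their UMIs, median depth 7856) had no Hox UMI, which allows a share of up to 1.13%, above the share over all barcodes. Doublets were not called. The bulk brain libraries had no Hoxd8 count, which allows up to 0.0539 CPM. The 14 Hoxd8 UMIs among 4.56e+07 UMIs of the single-cell library are a larger share than that limit. Why the assays differ for this gene was not tested.

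The 11 barcodes with Hoxd8 shared a marker profile that was looked at after these barcodes were seen. All 11 had UMIs of Plvap, a protein of fenestrated vessels that lack the blood-brain barrier, against 2.25% of barcodes without a Hox UMI. Slc2a1 was found in 2 of the 11 and Cldn5 in 6, against 93.2% and 95.3% of barcodes without a Hox UMI. Sorted by these genes, 9 of 106 barcodes with Plvap and without Slc2a1 had Hoxd8 (8.49%, interval 3.96% to 15.5%, median depth 4528 UMIs), as did 2 of 119 with both (1.68%, interval 0.204% to 5.94%, depth 5531). Of 8641 barcodes with Slc2a1 and without Plvap none had Hoxd8, which allows a share of up to 0.0347% at a median depth of 4470 UMIs, and of 539 with neither, none did either, at a depth of 1227. Of the 7 barcodes of cluster B, 6 were among the 8641 with Slc2a1 and without Plvap, which are most of the 9405 barcodes. None was among the 106, which allows up to 2.83% there, so these few barcodes show no placement. Cluster D also had 3 of its 16 barcodes among the 8641. The split came after the values were seen, so it describes this library and restates in part that all 11 had Plvap. Its intervals cover counting error only.

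**Figure D5:**
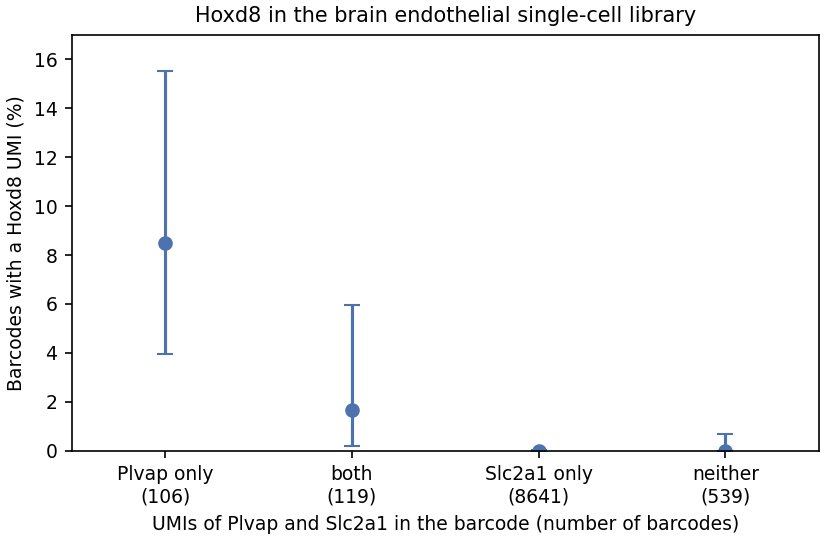
Share of barcodes with a Hoxd8 UMI in the brain endothelial single-cell library, by UMIs of Plvap and Slc2a1, with exact 95% binomial intervals and the number of barcodes in brackets. The share is 8.49% of 106 barcodes with Plvap alone, 1.68% of 119 with both, and 0 in the other groups.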

How the data were processed

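The deposited bulk RNA table holds raw counts for each gene symbol, as its header states. Single-cell values were deposited UMI counts per gene and barcode, and filters before deposit are not given in the sources used here. The submitters' processing notes name mm9 and mm10 as builds and, among the tools, Cell Ranger 1.2.0, HTSeq 0.6.1, SAMtools 1.10.2, Bowtie2 and TopHat, tying none to an assay. Strand use in counting is not stated there, which leaves overlapping and antisense genes uncertain. RNA columns were matched to samples by their titles, and 0 further value columns were left over.

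CPM scale each count to a fixed library total, and neither CPM nor counts are corrected for gene length where they are summed or set side by side over genes. Counts were tested with edgeR 4.0.16 in R 4.3.3: filterByExpr (minimum count 10) kept 13216 genes, TMM scaled the libraries, and all 9 libraries entered 1 robust quasi-likelihood fit by tissue. The common biological coefficient of variation was 0.766. Fold bounds use a floor of 3 counts over a tissue's libraries. DESeq2 1.42.0, other scalings and filters, and leaving out libraries were alternatives. The fit was tested on simulated counts with 200 genes given a change: of 41 genes changed by 8 on the log2 scale among 12870, 27 were called between brain and lung and 29 between brain and liver, with 1 and 5 false calls.

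Values per library are printed for each Hox gene that passed the filter or reached a mean of 1 CPM in a tissue. From each surrounding list, up to 4 called genes with the largest change were named, and further names were chosen after their values were seen. The members and lists were chosen with earlier results of these data known. ATAC-seq counts of the same tissues were not used here, since peaks carry no gene names. Protein sequences were not analysed here, and single values of some genes that enter the counts and sums are not reported here. Figures were drawn with matplotlib 3.10.9.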

Additional observations from a re-analysis of the deposited data

How the results depend on the processing

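The 7 calls in brain against lung were made under every alternative tried, and no Hox gene was called higher in brain under any. In brain against liver the count of 10 ran from 7 to 10 when single libraries were left out, was 9 without a count filter and 11 by DESeq2 and in a fit of the 2 tissues alone, which both added Hoxb6. In lung against liver the count of 0 became 1 by DESeq2 and in a fit of the 2 tissues alone, Hoxa4 both times, whose adjusted p ran from 0.00307 to 0.227 over the alternatives. With library size as the only scaling, the median log2 difference of all genes became 0.18 in brain against liver and 0.22 in lung against liver. The labels share replicate numbers 1 to 3 between tissues. Deviations of same-numbered libraries from their tissue mean correlated by -0.0023 to 0.0689 (other numbers -0.0581 to 0.0525). With 3 libraries per tissue this cannot tell whether same-numbered libraries share an animal or a batch. A fit with the replicate number as a block called 7, 8 and 0 Hox genes in brain against lung, brain against liver and lung against liver.

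Directions changed only for small lung to liver differences without a call. Hoxa3, at -0.04, was 0.15 with library size alone, 0.051 with RLE scaling and 0.0509 by DESeq2, and ran from -0.70 to 0.53 when single libraries were left out, above 0 without lung replicate 1 (0.04), lung replicate 3 (0.35) or liver replicate 1. Hoxb4, at -0.18, was 0.035 with library size alone and ran from -0.57 to 0.29 when single libraries were left out, above 0 without lung replicate 3 (0.11) or liver replicate 3. Hoxb5, at -0.71, ran from -1.001 to 0.10, above 0 without liver replicate 2. With Rn45s and Malat1, which took 12.2% to 28.8% and 1.44% to 7.74% of a library, left out of the totals, the mean Hox sum in liver rose from 196 to 270 CPM. Asking for a count in every library left 0 detected genes in brain and 11 in liver. The mean Hox sum lay at 0.178 to 0.366 CPM in brain, 156 to 203 in lung and 192 to 198 in liver when 1 library was left out. Depth limits the lung libraries most, where a count was worth up to 0.334 CPM.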

Other observations

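In the single-cell library, genes of retinoic acid handling were looked up in the barcodes with Plvap and without Slc2a1, which held 9 of the 11 with Hoxd8, and in those with Slc2a1 and without Plvap. These genes were chosen after their values were seen. Dhrs3, which returns retinal to retinol, had a UMI in 44 of 106 barcodes with Plvap and without Slc2a1 (41.5%, exact 95% interval 32.0% to 51.5%) and in 8.58% of the 8641 with Slc2a1 and without Plvap. Cyp26b1 had a UMI in 25 of the 106 (23.6%, interval 15.9% to 32.8%) and in 0.544% of the 8641. Stra6 went the other way, with none of the 106, which allows a share of up to 2.83%, against 16.9% of the 8641. In the 119 barcodes with both Plvap and Slc2a1, Dhrs3 was found in 34.45%, Cyp26b1 in 15.97% and Stra6 in 8.40%. For Dhrs3 and Cyp26b1 the intervals of the 119 and the 106 overlap, so these values do not set apart the barcodes without Slc2a1.

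Meis1 had 4 UMIs and Meis2 31 UMIs in the whole single-cell library, the latter in 7 barcodes, of which 1, with no UMI of Pecam1, Cdh5 or Cldn5, held 23. Hoxd3os1, a noncoding RNA of cluster D, had 9 UMIs in 7 barcodes, 4 of them among the 106 and none with a Hox UMI.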
